A study of Mus musculus with 24 samples.

Results

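The nuclear genes for subunits of complexes II, III and IV of the respiratory chain and of complex V, the ATP synthase, were examined after knockdown of the long noncoding RNA Ctcflos in differentiating brite adipocytes. The rule took every gene symbol that starts with Uqcr, Cox4 to Cox8 or Atp5, together with Sdha to Sdhd, and left out Cox7a1 and Cox8b. Each gene was represented by the RefSeq mRNA entry with the highest mean level. This gave 45 genes of the 52089 gene symbols in the table, chosen from 49 RefSeq entries, of which 4 belong to complex II, 8 to complex III, 16 to complex IV and 17 to complex V. The rule used no difference between groups, only names and, to pick the entry, mean levels. Cox7a2l, a factor of respiratory supercomplexes, Atp5s (now Dmac2l, coupling factor B) and Atp5sl (now Dmac2, a complex I assembly factor) carry a matching name without being subunits of the complex they are listed under.

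The cells were primary preadipocytes from the stromal-vascular fraction of inguinal white fat of 129SvEv mice, and all of them were differentiated with rosiglitazone, a PPARγ agonist that induces browning. On the first day of differentiation they received 50 nM of a locked nucleic acid gapmer against Ctcflos (KD) or a nontargeting gapmer (NC) and were harvested 24 h or 72 h later, with 6 libraries for each treatment at each time. All groups thus shared strain, drug, transfection and dose, and the labels name neither the gapmer sequence nor the cultures or mice behind a replicate, so that p-values measure only the spread between these libraries. Replicates 2 and 3 of NC 72 h differed by less than separate read sampling would give, with 0.348 of the variance expected of it. All other pairs of libraries stood at 1.994 or more. These 2 replicates enter as their mean, which leaves n = 5 in that group. Why they agree so closely was not tested.

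Complex II oxidises succinate and passes the electrons to ubiquinone. Complex III hands them on to cytochrome c, complex IV reduces oxygen with them, and complex V uses the proton gradient that complexes I, III and IV build up to make ATP. Brite adipocytes are rich in mitochondria and can spend this gradient as heat through UCP1. Most subunits are encoded in the nucleus, and several have tissue-specific paralogues.

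The libraries held between 1391832 and 5423840 reads (median 3945867), a figure recovered from the read steps in the deposited values, and KD 24 h replicate 6 was the shallowest. Ctcflos was low in every group. Its RefSeq transcript measured 0.178 to 1.38 RPKM (reads scaled to transcript length and to the total of mapped reads) in NC 24 h and 0 to 0.62 RPKM in KD 24 h, and 0.846 to 1.75 RPKM in NC 72 h against 0 to 0.517 RPKM in KD 72 h, so that for this entry the groups overlapped at 24 h and not at 72 h. The Ensembl entry ENSMUST00000144256 of the same gene overlapped at both times, with 0 to 0.494 RPKM in KD 72 h and 0 to 2.32 RPKM in NC 72 h. The 7 adipocyte markers summed to 27443 to 53368 RPKM per library, most of it from Fabp4 (36825 RPKM on average). Over the same libraries the summed preadipocyte markers ranged from 357 to 983 RPKM, most of it from Ly6a (688 RPKM on average). These and the following sums are of deposited values. The summed endothelial markers stayed between 0.192 and 1.48 RPKM, the macrophage markers between 3.15 and 29.8 RPKM and the muscle markers between 1.03 and 32.3 RPKM. Brite markers ranged from 166 to 360 RPKM in NC 24 h and from 94.2 to 177 RPKM in KD 24 h, and from 731 to 1104 RPKM in NC 72 h and from 220 to 441 RPKM in KD 72 h. The deviations of the libraries from their group means formed 2 clusters, of which the larger held 16 libraries and the smaller 8, and every group had 2 libraries in the smaller. No label names this split, and results are given within both clusters below.

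At 72 h most of the subunit genes were lower in KD than in control cells. Of the 45 genes 42 passed the filter on low values (10 read equivalents or more in enough samples to fill the smaller group), 38 of them had a lower mean in KD and 24 were called lower by limma at an adjusted p under 0.05, whereas only Cox4i2 was called higher. Among all genes tested with 1 RefSeq entry each, 12.5% were called lower and 11.1% higher at 72 h, and over all transcript entries 12.1% were called lower. The median log2 fold change of the 42 was -0.41, beside 0.02 for the RefSeq genes. In 21 of the 42 the KD samples lay wholly below the NC samples, which held for 8.42% of the RefSeq genes. Complex III had 6 of 8 called lower, complex IV 9 of 14, complex V 7 of 16 and complex II 2 of 4, with median log2 fold changes of -0.47, -0.45, -0.33 and -0.33, and no test compared the complexes with each other.

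At 24 h few of the subunit genes were called. Of 41 that passed the filter 34 had a lower mean in KD, 6 were called lower and none higher. Of the RefSeq genes 12.5% were called lower and 11.6% higher, and 11.6% of all entries were called lower, so the share of 6 in 41 was near the background. At an unadjusted p under 0.05, 14 were lower and none higher, beside 19.7% and 19.2% of the RefSeq genes. Their median log2 fold change was -0.15, beside 0.00 for the RefSeq genes. KD lay wholly below NC for 4 of the 41 (Uqcrq, Cox4i1, Atp5d and Atp5s), beside 7.35% of the RefSeq genes. The calls at 24 h depended on single libraries: without KD replicate 1, 2 or 5 or without NC replicate 3, 4 or 5 there were 3 (Cox4i1, Atp5k and Atp5o were the genes lost), and without KD replicate 6, the shallowest library, there were 11.

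**Figure D1:**
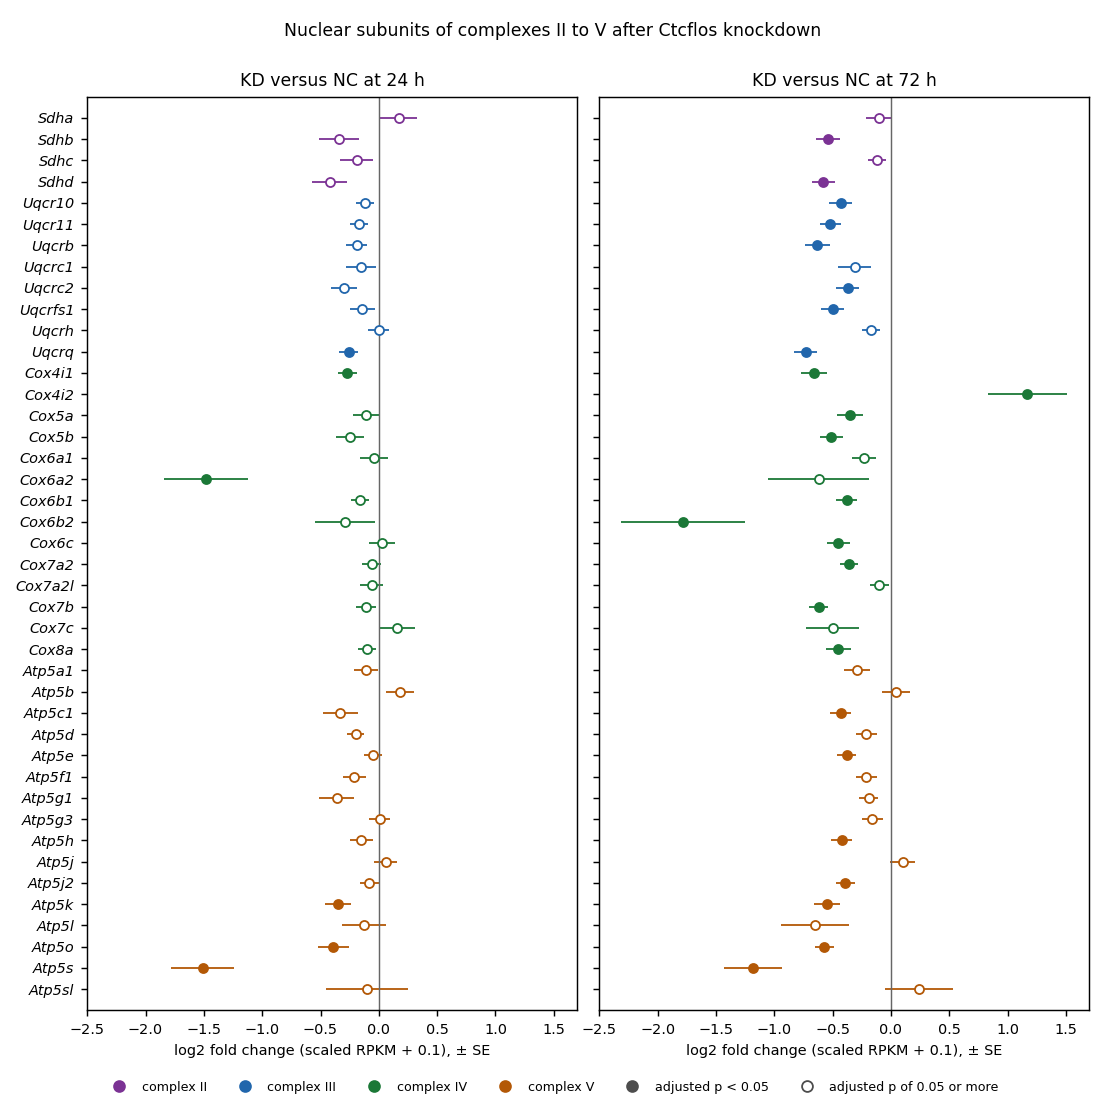
Log2 fold change between KD and NC (x axis, log2 of scaled RPKM + 0.1) for each gene that was tested at 72 h (y axis, ordered by complex), at 24 h on the left and at 72 h on the right. Points are limma estimates with 1 SE, filled where the adjusted p is under 0.05, and most filled points at 72 h sit between -0.73 and -0.35.

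The size of the change at 72 h depended on the scale. RPKM were scaled between libraries so that the bulk of entries had equal levels. On the deposited RPKM the median of all entries was 0.25 higher in KD on the log2 scale, against 0.01 after scaling, and 80.9% of all calls were higher in KD, against 46.2% after scaling. On the deposited scale 29 of the 42 genes had a lower mean in KD, 8 were called lower (Sdhd, Uqcrb, Uqcrq, Cox4i1, Cox6b2, Cox7b, Atp5o and Atp5s, beside 5.88% of the RefSeq genes) and Cox4i2 and Atp5j were called higher. The median of the 42 was then -0.16. The values below are therefore falls relative to the bulk of transcripts, and 9 genes with a lower mean in KD after scaling were above 0 on the deposited scale: Sdha, Sdhc, Uqcrh, Cox6a1, Cox7a2l, Atp5d, Atp5f1, Atp5g1 and Atp5g3. None of these 9 was called on either scale. The choice mattered less at 24 h, with 6 called lower on the deposited scale beside 11.1% of the RefSeq genes.

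Both clusters of libraries showed lower means for most of the genes at 72 h, but not to the same extent. Within the larger cluster (4 KD against 3 NC samples) 38 of 41 were lower with a median of -0.54 and 31 were called lower, beside 13.7% of the RefSeq genes. Within the smaller cluster (2 KD against 2 NC libraries) 30 of 42 were lower with a median of -0.17, 6 were called lower (Sdhb, Uqcrq, Cox7b, Atp5k, Atp5o and Atp5s), beside 6.44% of the RefSeq genes, and Cox4i2 and Atp5b were called higher. At 24 h the larger cluster had 35 of 41 lower with 12 called, beside 13.8%, and the smaller one 26 of 41 lower with a median of -0.04 and none called, beside 1.44%. The difference between the clusters was not tested.

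**Figure D2:**
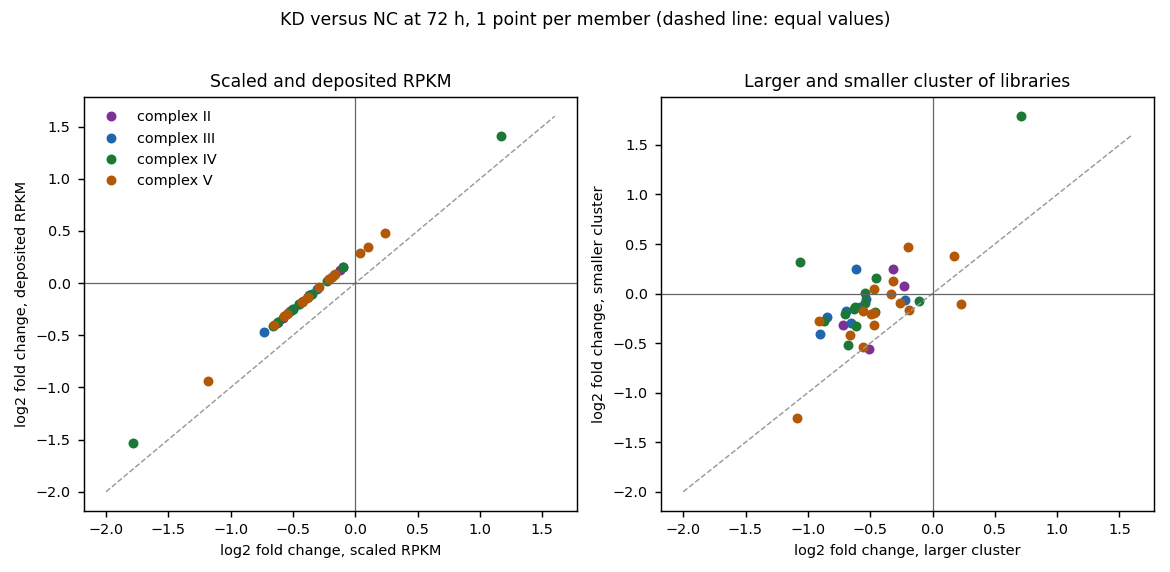
Log2 fold changes at 72 h, 1 point per gene and coloured by complex. The left panel sets the deposited scale (y axis) against the scaled values (x axis), with all points about 0.25 above the dashed line of equal values. The right panel sets the smaller cluster of libraries (y axis) against the larger (x axis), where most points lie above that line.

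The sequences before the transcription start are shown for the gene of each complex with the smallest p-value at 72 h among those with a RefSeq promoter window, and for Atp5b, the gene with the smallest change, so that genes that fell and the one that did not can be read side by side. All coordinates are RefSeq annotation on GRCm38.p6. Sdhd lies at chr9:50603850-50604099 (- strand), Uqcr11 at chr10:80406822-80407071 (- strand), Cox7b at chrX:106015450-106015699 (+ strand), Atp5o at chr16:91931631-91931880 (- strand) and Atp5b at chr10:128083057-128083306 (+ strand). Each line holds the 250 bases that end at the start site, 5′ to 3′ on the strand of the gene, with matches to the searched motifs in capitals.
Sdhd: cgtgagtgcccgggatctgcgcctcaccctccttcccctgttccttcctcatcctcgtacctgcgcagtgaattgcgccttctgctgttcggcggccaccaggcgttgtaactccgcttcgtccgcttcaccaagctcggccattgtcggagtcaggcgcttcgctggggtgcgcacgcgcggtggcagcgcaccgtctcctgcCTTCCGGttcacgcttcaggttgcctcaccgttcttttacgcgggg
Uqcr11: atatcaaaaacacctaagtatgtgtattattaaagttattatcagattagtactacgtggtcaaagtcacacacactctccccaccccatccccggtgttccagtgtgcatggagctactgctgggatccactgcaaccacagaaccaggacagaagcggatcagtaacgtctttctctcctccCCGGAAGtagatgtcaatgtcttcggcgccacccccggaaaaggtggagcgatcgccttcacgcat
Cox7b: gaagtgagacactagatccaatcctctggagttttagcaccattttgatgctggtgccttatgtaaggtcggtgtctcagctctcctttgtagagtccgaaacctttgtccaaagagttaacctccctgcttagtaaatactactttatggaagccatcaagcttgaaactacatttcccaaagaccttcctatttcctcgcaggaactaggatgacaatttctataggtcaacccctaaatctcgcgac
Atp5o: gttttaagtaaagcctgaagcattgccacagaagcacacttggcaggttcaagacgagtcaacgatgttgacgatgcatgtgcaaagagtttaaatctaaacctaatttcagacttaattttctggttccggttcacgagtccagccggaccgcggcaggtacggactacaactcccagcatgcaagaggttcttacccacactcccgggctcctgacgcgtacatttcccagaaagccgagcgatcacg
Atp5b: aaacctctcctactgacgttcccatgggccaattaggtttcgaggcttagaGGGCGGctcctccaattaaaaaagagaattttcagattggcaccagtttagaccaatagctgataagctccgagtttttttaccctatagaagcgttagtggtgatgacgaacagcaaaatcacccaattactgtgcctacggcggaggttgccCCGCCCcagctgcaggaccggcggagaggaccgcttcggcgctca

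The motifs searched on both strands, from 250 bases before to 50 after the start, were TCAAGGTCA for oestrogen-related receptors (ERR), CCGGAAG for ETS factors such as GABP, GCATGCGC for NRF1, AAGATGGCG for YY1 and GGGCGG for SP1, and none of the matches in these 5 windows overlapped one of another motif. Windows were found for 35 of the 45 genes, among them 19 that were called lower at 72 h. Each of the 35 entered with 1 window. The 32851 windows set beside them belong to 27025 genes, some with more than 1 window and none chosen by expression, so they are not a matched background. The ETS motif was held by 11 of the 35 (31.4%), beside 8.86% of all 32851 windows, and among these were Sdhd and Uqcr11 (capitals above). NRF1 letters were found in 7 of the 35, beside 2.71% of all windows, YY1 in 2 (5.71%, beside 1.4%), ERR in 2 (5.71%, beside 0.423%) and SP1 in 14 of the 35, beside 35.7%. By call at 72 h, 8 of the 19 genes called lower and 3 of the other 16 held the ETS motif, and 3 of the 19 and 4 of the other 16 the NRF1 motif. The other 16 include Atp5g2 and Cox7b2, which did not pass the filter and have no test result, and Atp5g2 is among the 4 with the NRF1 motif. The ERR match of Sdhd lies after the start, and the SP1 match of Sdhd and the NRF1 match of Uqcr11 cross it, so none of these is whole within the printed bases or in capitals, the Cox7b and Atp5o windows held none of the motifs, and Atp5b held SP1 letters at 2 places. A match is a description of the letters and was not tested for binding.

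In complex II the fall was unequal between the subunits. Sdhd, a membrane anchor that binds ubiquinone, measured 401, 334, 357, 327 and 364 scaled RPKM in the 5 NC samples at 72 h and 208 to 282 with a median of 228 in the 6 of KD. The groups did not overlap, and the gene fell by 0.58 ± 0.10 on the log2 scale (SE, limma adjusted p = 7.3e-04). The iron-sulfur subunit Sdhb measured 484, 431, 437, 507 and 400 scaled RPKM in NC and 255 to 347 in KD, again without overlap, and fell by 0.54 ± 0.10 (adjusted p = 0.0021). On the deposited scale Sdhd remained lower (-0.33, adjusted p = 0.043) and Sdhb did not pass (-0.29, adjusted p = 0.052).

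The other complex II subunits did not pass. The flavoprotein Sdha, which holds the succinate site, ranged from 62 to 88.2 scaled RPKM in NC 72 h and from 63.5 to 75.7 in KD 72 h, a log2 difference of -0.10 ± 0.11 (adjusted p = 0.55). The anchor Sdhc differed by -0.12 ± 0.08 (adjusted p = 0.32), and both were higher in KD on the deposited scale, by 0.15 and 0.13. Within the larger cluster both were called lower (-0.32 and -0.23, adjusted p = 0.024 and 0.043), and within the smaller they were at 0.25 and 0.08. The smallest p-values of complex II at 24 h belonged to Sdhd (-0.42 ± 0.15, adjusted p = 0.061, and 0.048 on the deposited scale) and Sdhb (-0.34 ± 0.17, adjusted p = 0.17). KD 24 h replicate 6 was lowest for Sdhb, Sdhc and Sdhd, at 189, 168 and 162 scaled RPKM, and highest for Sdha, at 111. Within the smaller cluster Sdhd differed by 0.02 at 24 h and by -0.32 at 72 h, and within the larger by -0.66 and -0.72.

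In complex III all 8 genes had a lower mean in KD at 72 h. Uqcrq, a small accessory subunit, measured 2780, 2866, 2332, 2474 and 2758 scaled RPKM in NC 72 h and 1337 to 1877 with a median of 1601 in KD 72 h. No KD sample reached the lowest NC sample, and the log2 fold change of -0.73 ± 0.10 (adjusted p = 2.6e-04) was the lowest of the complex. It was also called on the deposited scale (-0.47, adjusted p = 0.008) and within each cluster (-0.90 and -0.41, adjusted p = 2.3e-05 and 0.038). At 24 h it was the only complex III gene called, at 1767 to 1927 scaled RPKM in KD against 2078 to 2323 in NC, a fall of 0.26 ± 0.08 (adjusted p = 0.022). The second smallest p-value at 24 h was that of the core protein gene Uqcrc2 (-0.30 ± 0.11, adjusted p = 0.069).

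Uqcrb, which contributes to the ubiquinone site, ranged from 800 to 1176 scaled RPKM in NC 72 h and from 553 to 692 in KD 72 h and fell by 0.63 ± 0.11 (adjusted p = 0.0012). The small subunit gene Uqcr11, whose promoter letters are given above, ranged from 1455 to 1887 in NC and from 1090 to 1319 in KD and fell by 0.52 ± 0.09 (adjusted p = 0.0013). Uqcrfs1, the Rieske iron-sulfur protein that passes electrons towards cytochrome c, ranged from 381 to 494 in NC and from 273 to 349 in KD and fell by 0.50 ± 0.10 (adjusted p = 0.0023). In all of these the KD and NC samples at 72 h did not overlap. The accessory subunit gene Uqcr10 and the core protein gene Uqcrc2 were called as well, at -0.43 and -0.37, whereas the core protein gene Uqcrc1 (-0.31, adjusted p = 0.13) and the hinge protein gene Uqcrh were not. Uqcrh stood nearest to the control, at -0.17 ± 0.08 (adjusted p = 0.12) and at 0.08 on the deposited scale, and it was 0.00 ± 0.09 at 24 h.

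Summed over its 8 genes, complex III in KD 72 h reached 63.2% to 82.6% of the NC 72 h mean, while NC samples ranged from 91.4% to 107%. The sums of KD at 24 h were 84.6% to 95.6% and those of NC 97.5% to 103%. The 2 KD libraries of the smaller cluster had the highest sums at 72 h, 82.6% and 75.3%, and the 2 NC libraries of that cluster the lowest, 91.4% and 94.2%. Sums weight the abundant genes most and carry no test here.

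**Figure D3:**
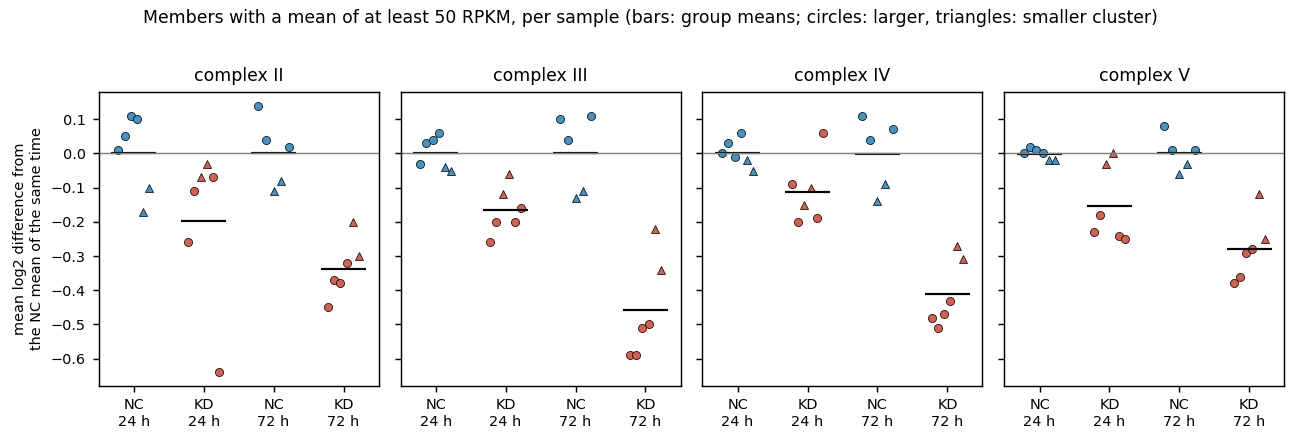
Mean log2 difference from the NC mean of the same time (y axis) over the genes of each complex with a mean of at least 50 RPKM, 1 point per sample in the 4 groups (x axis), with bars at group means and triangles for libraries of the smaller cluster. For complex III all KD 72 h samples sit between -0.59 and -0.22 and all NC 72 h samples between -0.13 and 0.11.

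Complex IV divided into its widely expressed subunits and their tissue-restricted paralogues. Cox7b, a small structural subunit, had the smallest p-value of the complex at 72 h and measured 1013, 1016, 858, 939 and 981 scaled RPKM in NC and 561 to 678 with a median of 630 in KD. All KD samples were below all NC samples, a fall of 0.62 ± 0.08 (adjusted p = 1.5e-04), which was called on the deposited scale (-0.37, adjusted p = 0.006) and within both clusters (-0.68 and -0.52). The same gene did not pass at 24 h, with 736 to 971 scaled RPKM in KD and 830 to 924 in NC (-0.11 ± 0.09, adjusted p = 0.39). Cox4i1, the regulatory subunit that binds ATP, ranged from 1905 to 2359 in NC 72 h and from 1166 to 1592 in KD 72 h and fell by 0.66 ± 0.11 (adjusted p = 7e-04). It was called at 24 h too, where the groups did not overlap (-0.27 ± 0.08, adjusted p = 0.029), but not without each of the libraries in turn (adjusted p up to 0.062).

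Cox5b, a zinc-binding subunit, fell by 0.51 ± 0.10 at 72 h (109 to 154 scaled RPKM in KD, 156 to 189 in NC, adjusted p = 0.0031), and Cox6c fell by 0.45 ± 0.10 (783 to 1043 against 1079 to 1343, adjusted p = 0.0043). Cox5a, Cox6b1, Cox7a2 and Cox8a were called as well, at -0.35 to -0.45 on the log2 scale, and Cox6a1 was not (-0.23, adjusted p = 0.13). Cox7a2l was nearest to the control, at -0.10 ± 0.08 (adjusted p = 0.37) and at 0.15 on the deposited scale. For Cox7c the RefSeq entry held only 24.1 RPKM on average and did not pass (-0.50 ± 0.23, adjusted p = 0.13), whereas the Ensembl entry of that symbol with the highest level ranged from 955 to 1118 scaled RPKM in KD 72 h and from 1477 to 2182 in NC 72 h (-0.70 ± 0.11, adjusted p = 4.4e-04). The RefSeq entry therefore holds a small part of the reads assigned to Cox7c, and at 24 h the Ensembl entry differed by 0.07 ± 0.10.

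The paralogues typical of other tissues were all low, at about 15 reads a library or fewer on average, so a few reads decide their values. Cox4i2, known from lung and for its induction by low oxygen, was the only gene called higher, with 5.76, 9.75, 2.26, 2.23 and 4.37 scaled RPKM in NC 72 h and 6.87 to 12.8 with a median of 9.73 in KD 72 h. The groups overlapped through NC replicates 2 and 3, and the log2 fold change was 1.17 ± 0.34 (adjusted p = 0.024). That call was lost without KD replicate 3 or 4 or NC replicate 4 or 5 (adjusted p up to 0.063), with NC replicates 2 and 3 counted separately (0.97, adjusted p = 0.053) and within the larger cluster (0.71, adjusted p = 0.091), and it held within the smaller (1.79, adjusted p = 0.0074) and on the deposited scale (1.41, adjusted p = 0.005). At 24 h it did not pass the filter, and at 72 h the KD samples, all 6 of which held the minimum of 10 read equivalents, were enough to pass it, whereas 3 of the 5 NC samples held that minimum. A gene that enters through the group where it is high is bound to differ, so its call is a description only. Cox6b2, a paralogue best known from testis, was lower at 72 h, with 10.7, 15.1, 13.1, 9.02 and 4.86 scaled RPKM in NC and 0.517 to 7.41 in KD (-1.78 ± 0.53, adjusted p = 0.027, and 0.065 without NC replicates 2 and 3). The minimum of reads was held by 1 of 6 KD and 4 of 5 NC samples. Cox6a2, the heart and muscle form, was called lower at 24 h, where 2 of 6 KD and 5 of 6 NC libraries held the minimum of reads and KD ranged from 0.969 to 4.87 and NC from 3.56 to 9.15 scaled RPKM (-1.48 ± 0.36, adjusted p = 0.011), and not at 72 h (-0.62 ± 0.43, adjusted p = 0.32). Both passed the filter mainly through NC, where they are high. Their calls, which count among the 24 lower at 72 h and the 6 at 24 h, are therefore descriptions only. Cox7b2 and Cox8c, both known from testis, did not pass the filter, and Cox8c was listed at 0 in all libraries.

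**Figure D4:**
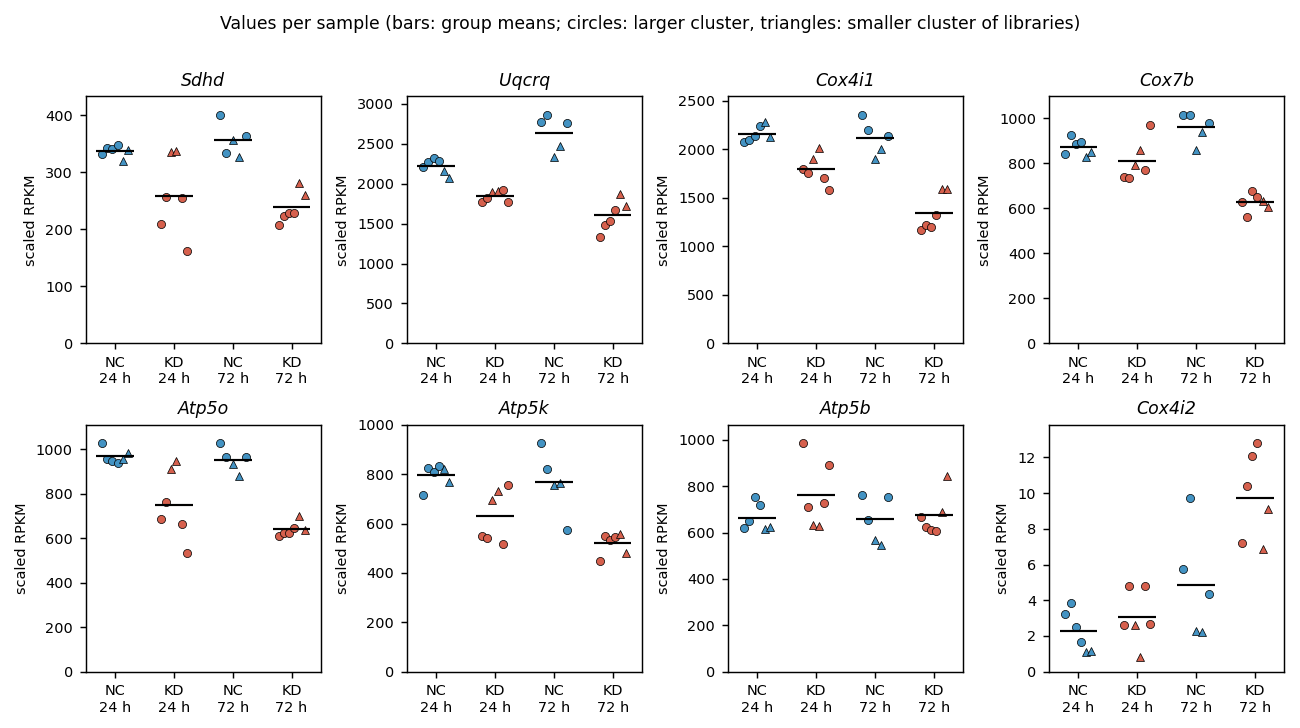
Scaled RPKM (y axis, from 0) of 8 genes in each sample of the 4 groups (x axis), with bars at group means, circles for the larger and triangles for the smaller cluster of libraries. At 72 h KD lies wholly below NC for Sdhd, Uqcrq, Cox4i1, Cox7b, Atp5o and Atp5k, while the groups overlap for Atp5b and Cox4i2.

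The balance between paralogues was read as a ratio within each sample, which does not depend on the scaling. Of the 7 ratios planned, 9 comparisons over both times had both genes above the filter, and 6 passed a two-sided exact permutation test after Benjamini-Hochberg adjustment over the 9. Relative to Cox7a2, the heart and brown fat paralogue Cox7a1 had log2 ratios of -0.59 to 0.14 in NC 72 h and -1.69 to -0.84 in KD 72 h, a difference of -1.11 ± 0.19 (adjusted p = 0.012, exact test). Relative to Cox8a, the brown fat paralogue Cox8b ranged from -1.3 to -0.84 in NC 72 h and from -3.23 to -1.63 in KD 72 h, a difference of -1.42 ± 0.26 (adjusted p = 0.012, exact test). On their own, Cox7a1 fell by 1.47 ± 0.20 and Cox8b fell by 1.87 ± 0.23 at 72 h (adjusted p = 1.9e-04 and 1e-04), and the widely expressed partners Cox7a2 and Cox8a fell by 0.36 ± 0.08 and 0.45 ± 0.11.

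At 24 h the Cox7a1 to Cox7a2 ratio differed by -0.51 ± 0.21 (adjusted p = 0.049, exact test), and leaving out KD replicate 1, 3 or 4 or NC replicate 1, 2, 3 or 4 raised the adjusted p to between 0.071 and 0.12. The Cox8b to Cox8a ratio at 24 h did not pass (-0.44 ± 0.31, adjusted p = 0.22, exact test), but it did without KD replicate 6 (adjusted p = 0.0097). Cox4i2 relative to Cox4i1 was higher in KD 72 h by 1.82 ± 0.41 (adjusted p = 0.012, exact test), with -7.83 to -6.63 in KD and -9.74 to -7.8 in NC. Both the rise of Cox4i2 and the fall of Cox4i1 enter this ratio. Cox6a2 relative to Cox6a1 was lower at 24 h (-1.43 ± 0.39, adjusted p = 0.012, exact test) and not shown to differ at 72 h (-0.39 ± 0.47, adjusted p = 0.47, exact test). Cox4i2 at 72 h passed the filter through KD and Cox6a2 at 24 h mainly through NC, the groups where they are high. Their ratios at those times count among the 6 that passed and are descriptions only. Atp5g1 relative to Atp5g3, both of which encode the same mature c subunit of the ATP synthase ring, was lower at 24 h (-0.37 ± 0.14, adjusted p = 0.012, exact test) and level at 72 h (-0.03 ± 0.09, adjusted p = 0.72, exact test). Within the smaller cluster, 2 libraries against 2 cannot pass this test.

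**Figure D5:**
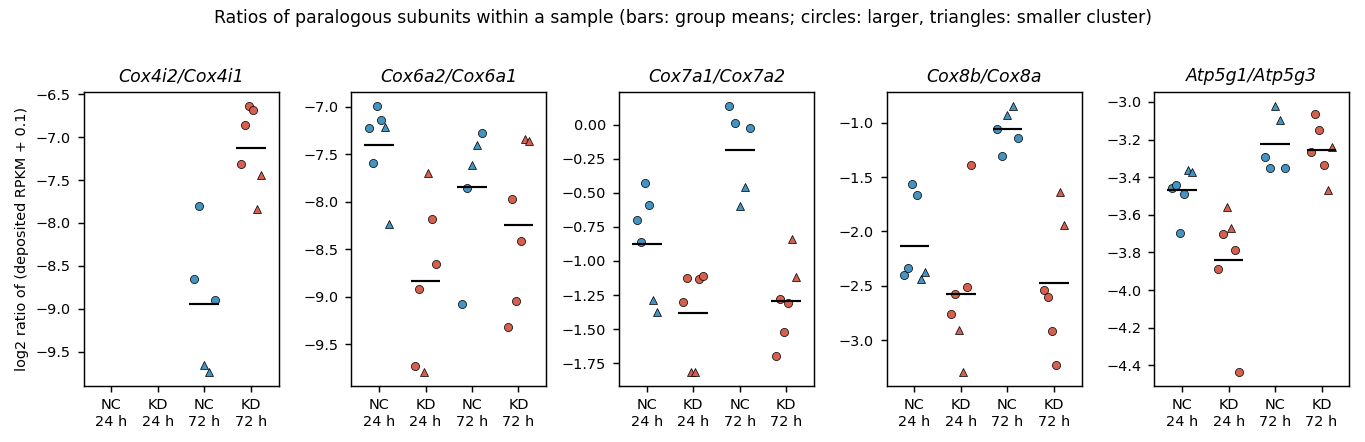
Log2 ratio of the deposited RPKM (+ 0.1) of 2 paralogues (y axis, its own range per panel) in each sample of the 4 groups (x axis), with bars at group means and triangles for the smaller cluster. At 72 h Cox7a1/Cox7a2 and Cox8b/Cox8a are lower in every KD sample than in every NC sample. Cox4i2/Cox4i1 is shown at 72 h only.

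In complex V the genes of the catalytic head, the stalk and the membrane part were mixed, with 2 of 5, 2 of 4 and 2 of 5 tested genes called lower at 72 h. Atp5o, the stalk protein OSCP that joins head and stalk, had the smallest p-value, with 1026, 967, 932, 878 and 965 scaled RPKM in NC 72 h and 610 to 700 with a median of 631 in KD 72 h. The groups were well apart, and the gene fell by 0.57 ± 0.08 (adjusted p = 1.6e-04), also within the larger (-0.66) and the smaller cluster (-0.42, adjusted p = 0.036) and on the deposited scale (-0.32, adjusted p = 0.016). At 24 h it was called with a fall of 0.39 ± 0.13 (adjusted p = 0.036), but the KD libraries spread from 534 to 947 against 939 to 1028 in NC, the adjusted p reached 0.079 without KD replicate 5, and the smaller cluster showed -0.07. Of the other stalk genes Atp5h was called at 72 h (-0.42 ± 0.09, adjusted p = 0.0048), Atp5f1 was not (-0.21, adjusted p = 0.10) and Atp5j was at 0.10 ± 0.11 (adjusted p = 0.52), and at 0.35 on the deposited scale (adjusted p = 0.014).

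Of the membrane part, Atp5k (subunit e, which helps ATP synthase to form dimers) ranged from 575 to 926 scaled RPKM in NC 72 h and from 449 to 559 in KD 72 h and fell by 0.55 ± 0.11 (adjusted p = 0.0036). It was also called at 24 h (-0.35 ± 0.11, adjusted p = 0.036, and up to 0.083 without single libraries). Atp5j2 (subunit f) ranged from 1504 to 1657 in NC 72 h and from 1066 to 1371 in KD 72 h and fell by 0.39 ± 0.08 (adjusted p = 0.0041). On the deposited scale neither passed, at -0.30 (adjusted p = 0.064) for Atp5k and -0.14 (adjusted p = 0.31) for Atp5j2. The c ring genes Atp5g1 and Atp5g3 did not pass at 72 h (-0.19 and -0.16), both were above 0 on the deposited scale, and Atp5g2 was listed at 0 in all libraries. The entry of Atp5l (subunit g) held only 9.98 RPKM on average (-0.65 ± 0.29, adjusted p = 0.12).

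The catalytic β subunit gene Atp5b was nearest to the control of all tested genes at 72 h, with 764, 656, 570, 546 and 752 scaled RPKM in NC and 608 to 846 with a median of 647 in KD. The groups overlapped, and the log2 difference was 0.04 ± 0.12 (adjusted p = 0.83). The clusters went opposite ways, with -0.20 (adjusted p = 0.078) in the larger and 0.47 (adjusted p = 0.043) in the smaller, and on the deposited scale it was 0.29 (adjusted p = 0.12). Of the other head genes, Atp5c1 (γ, -0.43 ± 0.09, adjusted p = 0.0043) and Atp5e (ε, -0.38 ± 0.08, adjusted p = 0.0057) were called at 72 h, while Atp5a1 (α, -0.29 ± 0.11, adjusted p = 0.063) and Atp5d (δ, -0.21 ± 0.09, adjusted p = 0.11) were not. Summed over its genes, complex V in KD 72 h reached 77.1% to 92.1% of the NC mean, beside 94.6% to 106% in NC.

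Atp5s, which is no structural subunit, showed the lowest fold change of the complex V names at both times. It measured 6.85 to 11.2 scaled RPKM in NC 24 h and 1.8 to 6.62 in KD 24 h, and 6.67, 7.22, 9.6, 12.9 and 9.56 in NC 72 h against 2.25 to 6.19 in KD 72 h. The groups did not overlap at either time, and the gene fell by 1.51 ± 0.27 (adjusted p = 0.0021) and 1.18 ± 0.25 (adjusted p = 0.0039) at a mean of 35.4 reads per library. Within the smaller cluster it differed by -0.68 (adjusted p = 0.27) and -1.26 (adjusted p = 0.045). Atp5sl at the same depth differed by -0.10 ± 0.35 and 0.24 ± 0.29 and did not pass.

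Whether the fall at 72 h was larger than at 24 h was tested by an interaction term over all groups. None of the 42 genes was called by limma, beside 0.202% of all entries. At an unadjusted p under 0.05 there were 14 with a lower and none with a higher difference at 72 h, beside 5.56% and 7.17% of the RefSeq genes. Cox7b had the smallest p-value (-0.50 ± 0.11, adjusted p = 0.066), ahead of Uqcrq (-0.45 ± 0.12, adjusted p = 0.13). The balance of directions rested on the scale: 34 of the 42 were below 0 with a median of -0.19 after scaling, and 22 with a median of -0.01 on the deposited values. A difference between the times was thus not shown for any single gene. The larger cluster alone gave 4 calls, and leaving out KD 24 h replicate 6 or NC 72 h replicate 4 gave 1. The share over all genes was not taken for these fits, so their counts have no background beside them.

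In control cells the median change over time was near 0, but 6 of the genes were called lower and 2 higher. Between NC 24 h and NC 72 h, 41 were tested with a median log2 change of -0.03. Sdhc, Uqcrh, Cox5a, Atp5a1, Atp5f1 and Atp5g3 were called lower at 72 h, with changes from -0.33 for Atp5g3 to -0.22 for Uqcrh, and Cox6a1 (0.25) and Cox6c (0.27) were called higher. Of all RefSeq genes 4.41% were called lower and 5.17% higher. These controls also enter the knockdown comparisons, so the values are given side by side only: Cox6c differed by 0.03 ± 0.11 at 24 h and by -0.45 ± 0.10 at 72 h between KD and NC, and Atp5g3 by 0.01 ± 0.09 and -0.16 ± 0.09.

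Genes that act on the same complexes were counted from lists. Of 43 genes on a list for assembly, cytochrome c and the paralogues left out above, 37 had an entry and 35 were tested. At 24 h 8 of the 35 were called lower and 1 higher, beside 12.5% and 11.6% of the RefSeq genes. At 72 h 15 were called lower and 1 higher with a median of -0.31, beside 12.5% and 11.1% of the RefSeq genes. The electron carrier cytochrome c, Cycs, fell by 0.98 ± 0.11 at 72 h (adjusted p = 6.2e-05), and the complex IV assembly factor genes Coa3 and Cox20 fell by 0.81 ± 0.10 (adjusted p = 1e-04) and 0.99 ± 0.14 (adjusted p = 2.9e-04). Cox18, which inserts a mitochondrially encoded subunit, was the one called higher, at 1.02 ± 0.19 at 24 h (adjusted p = 0.0028) and 0.62 ± 0.20 at 72 h (adjusted p = 0.042). Cox10, needed for haem A, was lower at both times (-1.58 ± 0.27 and -1.39 ± 0.24, adjusted p = 0.0017 and 0.0012).

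Of 11 tested regulators of nuclear respiratory genes 3 were called lower and 3 higher at 24 h, and 3 lower and none higher at 72 h. Beside them stand 12.5% of the RefSeq genes called lower at each time, and 11.6% and 11.1% called higher at 24 h and 72 h. Ppara fell by 1.42 ± 0.25 at 72 h (adjusted p = 0.0012), the coactivator gene Ppargc1a fell by 1.27 ± 0.23 (adjusted p = 0.0015) and the ETS factor gene Gabpa fell by 0.65 ± 0.18 (adjusted p = 0.018). At 24 h Pprc1, Gabpb1 and Yy1 were called higher, at 1.21, 1.18 and 0.74 on the log2 scale. Of 15 genes for other mitochondrial proteins, 2 were called lower at 24 h and 3 at 72 h, with medians of -0.18 and -0.23. Of the RefSeq genes 12.5% were called lower at each time, so these shares were near the background. By direction 10 were lower and 5 higher at 24 h, and 12 lower and 3 higher at 72 h. The 3 called at 72 h were citrate synthase, Cs (-0.63 ± 0.14, adjusted p = 0.0053), and the outer membrane channels Vdac2 (-0.31) and Vdac3 (-0.42). Mitochondrial content itself was not measured here. Markers of the cells changed at both times. Of 7 adipocyte markers 4 were called lower at 24 h with a median of -0.41, and of 4 tested brite markers 3 with a median of -0.89. At 72 h 3 of the adipocyte markers were called lower, among them Adipoq (-0.96 ± 0.15, adjusted p = 6.5e-04) and Fabp4 (-0.58 ± 0.13, adjusted p = 0.0057), with a median of -0.45, and all 4 tested brite markers were called lower with a median of -1.49. Of the other marker lists the macrophage gene Csf1r (1.23 ± 0.25, adjusted p = 0.0031, and 1.22 ± 0.27, adjusted p = 0.0061, at 24 h) was called higher at 72 h. The muscle gene Acta1 (-1.75 ± 0.53, adjusted p = 0.028) was called lower, and no endothelial gene passed the filter. The preadipocyte gene Cd34 was called higher (2.02 ± 0.36, adjusted p = 0.0015), at 1.09 to 2.8 scaled RPKM in KD 72 h and 0.155 to 0.758 in NC 72 h. The macrophage gene Lyz2 was called lower (-3.68 ± 0.59, adjusted p = 6.5e-04), at 0.226 to 3.98 in KD and 5.05 to 27.1 in NC. Each passed the filter through the group where it is high and is bound to differ, so both calls are descriptions only. Of the 4 preadipocyte genes tested at 72 h 2 were higher and 2 lower, with a median of 0.11. The part of these changes in the result was not tested, and in bulk RNA fewer cells of a type and less RNA per cell cannot be told apart.

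Counts can be shared where genes overlap. In GENCODE M21, exons of 13 of the 44 members found there overlap those of another gene, 12 of them on the opposite strand and 2 on the same. Atp5o shares 204 bases with Donson on the same strand, Cox4i1 shares 154 bases with Emc8 on the opposite strand, and Atp5j shares 175 with Gabpa. The handling of strand was not given in the sources used here.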

How the data were processed

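Poly(A) RNA of 24 libraries was sequenced from transcript 3′ ends by bulk RNA barcoding, and the authors processed them in the Genomatix suite. The deposited values are RPKM, written with decimal commas, for 168326 transcript entries. The aligner version, build and filters for these libraries were not given in the sources used here. Division by length suits reads along a transcript better than 3′ ends, so fold changes were taken within genes. Sums over genes and levels set side by side between genes or entries carry this limit. Members, lists and named genes were chosen with earlier results of these data known: per complex the 4 smallest p-values at 72 h and 2 at 24 h, the smallest change, calls in the opposite direction and paralogues. Cox7c, Atp5j, Cox6b2, Atp5h and other subunits outside that rule were named after their values were seen.

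Read totals came from the steps of the RPKM values. Among low values of Ensembl entries with an annotated length, 94.2% to 94.7% per library were whole steps. A step was 1 read, except in NC 72 h replicate 6, where 73.5% of values were whole reads and 94.3% were whole at 2 steps per read. Entries needed 10 read equivalents in as many samples as the smaller group and 15 in total. RPKM were scaled by a trimmed mean of log ratios (30% and 5% trimmed), and limma 3.58.1 in R 4.3.3 (lmFit, eBayes with trend) was run on log2(RPKM + 0.1), which understates changes of low genes, with Benjamini-Hochberg adjustment over all entries. The script was tested on simulated data. Same-numbered replicates did not deviate together, with mean correlations of -0.09 at 24 h and 0.02 at 72 h. Alternatives covered scaling, pseudocount, filter, weights, entries, clusters and left-out libraries.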

Additional observations from a re-analysis of the deposited data

Results flagged for a closer look

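Of 90 groups of values examined, 1 held a sample apart from the others, where chance alone marks about 1 in 20 groups. For Atp5b in KD 72 h, replicate 6 was the highest of the 6 samples at 846 scaled RPKM, and its distance to the next sample was 0.630 of the range of the group on the log2 scale, just past the limit for 6 samples. That library belongs to the smaller cluster. Without it, Atp5b differed by -0.02 between KD and NC at 72 h (limma adjusted p = 0.90), against 0.04 with it.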

How the results depend on the processing

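The number of genes called lower at 24 h was 6, and it was 2 with no filter on low values, 2 with the replicate block, 14 with sample weights, 10 with the cluster as a covariate, 12 within the larger and 0 within the smaller cluster, and 3 to 11 when single libraries were left out. At 72 h it was 24, with 8 on the deposited scale, 6 within the smaller cluster and 22 to 26 without single libraries. Interaction calls numbered 0. There was 1 with every library counted on its own, 2 with sample weights, 1 with 1 entry per symbol and 1 with Ensembl entries. With the cluster as a covariate there was 1, within the larger cluster 4, and without single libraries 0 to 1. No share over all genes was taken under these interaction settings. Between the controls 6 were called lower, 2 with the replicate block, 1 within the smaller cluster and 6 to 7 without single libraries. Of the paralogue ratios 6 passed, none (0) within the smaller cluster, where the test cannot pass, and 5 to 7 without single libraries. The labels do not say whether the replicate numbers pair the samples, and same-numbered replicates did not deviate together on average. The replicate block left 18 calls at 72 h.

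Directions turned for these values. On the deposited scale at 72 h Sdhc was 0.13, Sdha 0.15, Uqcrh 0.08, Cox7a2l 0.15, Cox6a1 0.02, Atp5d 0.04, Atp5f1 0.04, Atp5g1 0.06 and Atp5g3 0.09. Sdha at 72 h was 0.03 with 1 entry per symbol, 0.02 for its Ensembl entry and 0.25 within the smaller cluster, where Sdhc was 0.08, Uqcrc1 0.25, Cox5a 0.01, Cox6a1 0.16, Cox6a2 0.32, Atp5a1 0.05 and Atp5g3 0.13. Atp5b at 72 h was 0.00 for its Ensembl entry, -0.20 within the larger cluster and -0.02 to 0.10 without single libraries. Within the smaller cluster at 24 h Sdhd (0.02), Sdhb (0.07), Sdhc (0.13) and Uqcrc2 (0.00) turned upward. Cox7a2l (0.14), Atp5a1 (0.12), Atp5c1 (0.01), Atp5f1 (0.05), Atp5l (0.11) and Atp5sl (0.44) did so too. Cox7c (-0.14) and Uqcrh (-0.01) turned downward there. The 72 h ratio Atp5g1/Atp5g3 was 0.13 within the larger cluster and -0.07 to 0.02 without single libraries, and Cox6a2/Cox6a1 was 0.16 within the smaller cluster. The cause was not tested. Apart from Cox4i2, Cox5a and Cox6b2, the genes called at 72 h (22 of 25) were called without each sample in turn.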
